A study of Homo sapiens with 7 samples.

Results

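The proteasome subunit genes were followed in differentiating HUDEP-2 cells whose TMCC2 gene had been lowered with either of 2 guide RNAs. Members were the rows of the count table whose whole symbol was PSM, then A, B, C, D, E, F or G, then a number: 48 of 32738 rows, of which 44 were abundant enough to test. They comprised 7 alpha ring genes, 7 constitutive beta ring genes, 3 immunoproteasome genes, 2 tissue-specific genes, 6 cap ATPases, 11 other cap subunits, 3 cap assembly chaperones, 4 activators, 1 inhibitor and 4 core assembly chaperones. HUDEP-2 is an established human cell line made from cord blood progenitors that can be matured into haemoglobin-producing cells. Each library came from HUDEP-2 cells that had taken up lentivirus for CRISPR interference, where a guide RNA brings a transcriptional repressor to chosen DNA, and that were then matured for 72 h in medium with 3 IU/ml erythropoietin. The groups were guide 1 (2 libraries) and guide 2 (2 libraries), both directed at regulatory DNA upstream of the TMCC2 isoform used by erythroid cells, and a non-targeting guide (3 libraries). All groups, the non-targeting group included, had therefore received virus, doxycycline-containing expansion medium and the same differentiation medium. No label says that the libraries of a group were separate cultures, and the spread behind each p-value is that between libraries and may be technical.

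The proteasome is the protease that degrades proteins tagged with ubiquitin. Its core is a barrel of stacked rings: outer alpha rings gate the entrance, and inner beta rings carry the cutting sites. A cap recognises and unfolds ubiquitin-tagged proteins with its ring of ATPases, other caps and inhibitors compete for the ends of the barrel, and dedicated chaperones build both parts. Red cell precursors use this machinery to clear unpaired globin chains and to dismantle their contents as they mature, and ubiquitin-dependent degradation was first worked out in extracts of rabbit reticulocytes. In human cells the transcription factor NFE2L1 raises proteasome genes together through antioxidant response elements when degradation is impaired.

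The guides define the groups, so their sequences are given 5′ to 3′ as the labels state them. Their genomic positions were not analysed here.
guide 1: gtcgtgctgcaggtgaagtg
guide 2: ccatccttcagagtaaacag
non-targeting guide: atcgcgaggacccgttccgcc

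The promoters of 3 cap genes are shown because PSMD3 and PSMD2 had the smallest p-values of the family in the comparison of both guides with the non-targeting guide, and because PSMD12 stood highest in non-targeting replicate 1, relative to the other libraries, among members with under 30% of their sequence shared with another gene. Each line gives the 250 bases before the RefSeq start in GRCh38.p14, read along the gene's strand. Capitals mark matches to TGACNNNGC, the core of the antioxidant response element.
PSMD3 (chr17:39980557-39980806, plus strand): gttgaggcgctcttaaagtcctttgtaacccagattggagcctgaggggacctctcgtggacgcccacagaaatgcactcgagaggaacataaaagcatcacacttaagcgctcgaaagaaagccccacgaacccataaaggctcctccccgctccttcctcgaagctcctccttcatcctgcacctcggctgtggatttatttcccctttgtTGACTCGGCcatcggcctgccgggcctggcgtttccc
PSMD2 (chr3:184298991-184299240, plus strand): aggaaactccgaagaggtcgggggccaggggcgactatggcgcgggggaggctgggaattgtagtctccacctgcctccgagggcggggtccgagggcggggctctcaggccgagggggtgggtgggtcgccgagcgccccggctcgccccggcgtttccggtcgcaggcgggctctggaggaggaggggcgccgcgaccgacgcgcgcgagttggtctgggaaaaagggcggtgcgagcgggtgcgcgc
PSMD12 (chr17:67366578-67366827, minus strand): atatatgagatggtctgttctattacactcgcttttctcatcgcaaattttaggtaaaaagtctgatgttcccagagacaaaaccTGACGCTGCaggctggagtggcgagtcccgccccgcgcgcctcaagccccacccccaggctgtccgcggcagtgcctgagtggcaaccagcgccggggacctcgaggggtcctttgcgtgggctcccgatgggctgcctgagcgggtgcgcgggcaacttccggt

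A RefSeq promoter (250 bases before the start and 50 after it) was found for 42 of the 48 members, and both strands were searched. A gene was counted when any of its listed promoters held a match. TGACNNNGC occurred in 15 of the 42 members (35.7%), against 16.1% of all 27305 genes with such a promoter. CCGGAAG, the ETS factor site, occurred in 15 (35.7%), against 12.2% of those genes. CCAAT occurred in 20 (47.6%), against 39.7%. The GATA factor site AGATAA, common near erythroid genes, occurred in 1 member, PSMC6 (2.38%), against 12.4%. None of these 4 motifs contains another in its fixed letters. A match is a description of letters and not a shown binding site, and no library here measured binding. Of the 3 promoters printed, those of PSMD3 and PSMD12 hold the response element core and that of PSMD2 does not.

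The 7 libraries held 9780800 to 11350113 counts each. TMCC2, the targeted gene, had 2327 and 2342 counts with guide 1 and 2454 and 2759 with guide 2, against 9425, 9316 and 8698 in the non-targeting libraries, so TMCC2 differed by -1.89 on the log2 scale for both guides (SE 0.091; edgeR adjusted p = 4.42e-08). Levels below are in CPM, counts scaled to library size after TMM normalisation, unless stated. The 11 erythroid markers, globins included, summed to 277000 to 278000 CPM of total counts with guide 1, 262000 to 266000 with guide 2 and 241000 to 279000 in the non-targeting group. The 7 white blood cell markers used summed to 0.552 to 0.765 CPM with guide 1, 0.286 to 0.971 with guide 2 and 0.511 to 1.5 in the non-targeting group, with CD3E, MS4A1 and MPO at 0 throughout. The 4 megakaryocyte markers summed to 66.0 to 71.6 CPM with guide 1, 50.0 to 63.7 with guide 2 and 46.8 to 63.8 in the non-targeting group, with PF4 and PPBP at 0, and the 4 fibroblast and endothelial markers in the table to at most 0.276 CPM in any library. In bulk libraries, fewer cells of a type and less RNA per cell cannot be told apart.

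In the proteasome genes, non-targeting replicate 1 was unlike the other 6 libraries, and it touches each comparison with the non-targeting group. For each gene, the deviation of a library was taken as its log2 CPM minus the mean of the 3 group means. In non-targeting replicate 1 these deviations had an SD of 0.25 over the 44 tested members and passed 0.25 in either direction for 16 of them. In the other libraries the SD was 0.095 to 0.13 and 0 to 4 members passed 0.25. The same library stood apart over all tested genes, of which 48.2% passed 0.25 in it, against 18.1% to 23.6% in the others.

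**Figure D1:**
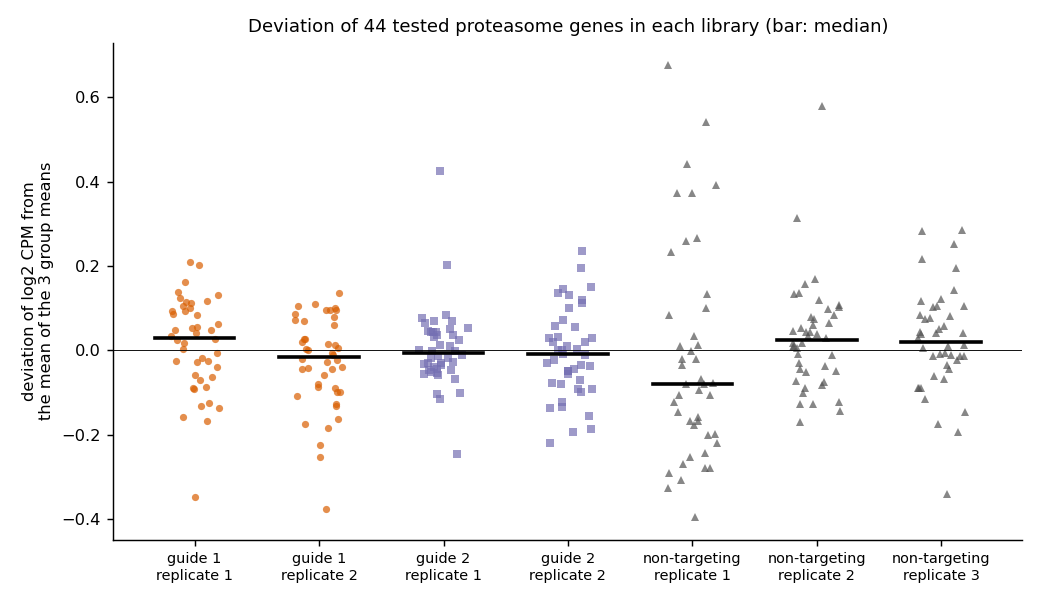
Deviation of each of the 44 tested proteasome genes in each library (y axis: log2 CPM minus the mean of the 3 group means), with guide 1, guide 2 and non-targeting libraries from left to right and a bar at each library's median. Points of non-targeting replicate 1 spread from -0.40 (PSMD4) to 0.68 (PSMA1), about a median of -0.080, while the other medians lie between -0.016 and 0.030.

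Both directions were present in that library. PSMA1 stood there at 1.71 times the mean of the other 6 libraries, PSMD12 at 1.53, PSMD5 at 1.41, PSMA4 at 1.36, and PSMA3 and PSMG2 at 1.34 each. PSMD4, the ubiquitin receptor of the cap, stood at 0.730 times that mean, PSMB3 at 0.769, PSMB6 at 0.780 and PSMC4 at 0.793. In all, 30 members were below the mean of the other libraries and 14 above it. Among those other 6 libraries the highest level was less than 1.3 times the lowest for 36 of the 44 tested members. PSMD3 (1.95 times) and PSMD2 (1.4 times) were among the exceptions. The same count over all genes is not given here.

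Which members were high and which were low followed GC content, the share of G and C bases in their transcripts. Across the 44 members, Spearman's rho between transcript GC content and the deviation in non-targeting replicate 1 was -0.72, and it was -0.68 over 9424 tested genes with a GC value. These points share 1 library, so no p is given. Of the 22 members of lower GC content (39.9% to 48.3%), 13 deviated upwards and 9 downwards, with a median of 0.059. Of the 22 members of higher GC content (48.7% to 61.9%), 2 deviated upwards and 20 downwards, with a median of -0.17. The sign was the other way in guide 1 replicates 1 and 2 (rho 0.48 and 0.40) and in non-targeting replicates 2 and 3 (0.58 and 0.43), and the values for guide 2 replicates 1 and 2 were 0.13 and -0.57. All deviations share a centre to which non-targeting replicate 1 contributes, so the signs of the libraries are not independent. After a correction for GC content, rho over the members in non-targeting replicate 1 was 0.027, the SD of its deviations was 0.18, and 7 members still passed 0.25. The correction takes out a GC trend fitted to these same data, so a rho near 0 follows from its design.

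**Figure D2:**
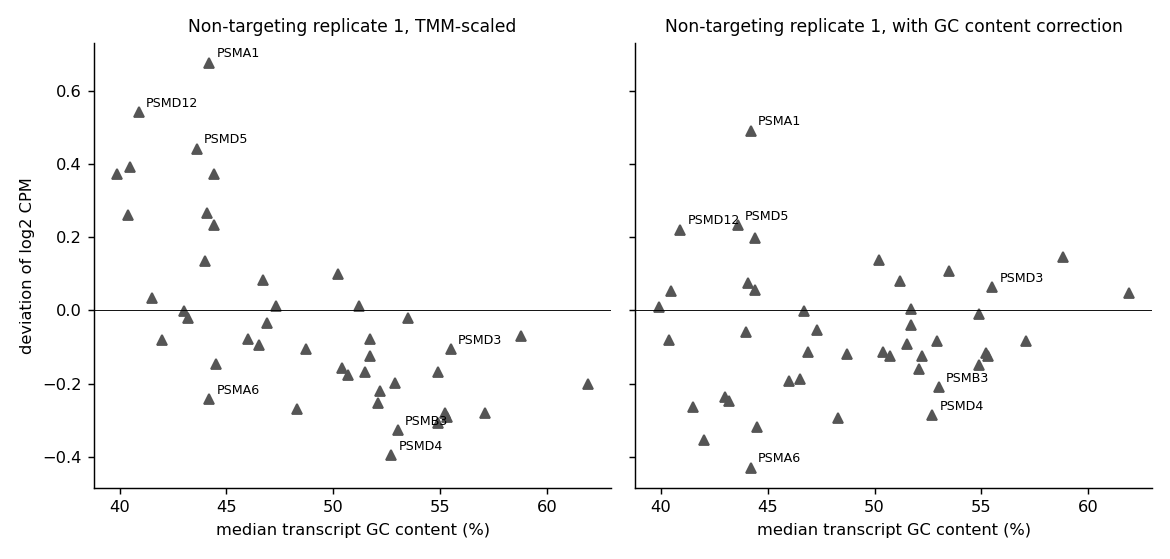
Median transcript GC content in percent (x axis) against the deviation of log2 CPM in non-targeting replicate 1 (y axis) for the 44 tested proteasome genes, before (left) and after (right) the GC content correction. PSMA1, PSMD12 and PSMD5 sit highest on the left, PSMD4 and PSMB3 lowest, and the downward slope (rho -0.72) is near level on the right (rho 0.027), where the correction has removed it by design.

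The family took 0.6% to 0.619% of the counts in every library. Summed over the 48 members, the level was 6240 and 6080 CPM with guide 1, 6020 and 5950 CPM with guide 2, and 5680, 6320 and 6310 CPM in the non-targeting libraries. The lowest and the highest sums both belonged to the non-targeting group, so the guide libraries lay within its range.

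Levels of different genes were compared per kilobase of transcript, using the median length of a gene's principal GENCODE v29 transcripts and the mean of all 7 libraries. Among the ring and cap classes the beta ring had the highest median, 170 CPM per kilobase, with PSMB1 at 473 and PSMB2 at 26.4 as its extremes. PSMB1 ranged over the libraries from 429 to 490 CPM per kilobase and did not overlap the next gene, PSME1, at 316 to 383. PSMB6 followed at 239 to 322, which overlapped PSME1. The medians of the other cap subunits, the cap ATPases and the alpha ring were 68.8, 55.3 and 22.8 CPM per kilobase. In these classes PSMD8, PSMC4 and PSMA7 stood highest, at 188, 107 and 218 CPM per kilobase. The activators ran from 19.1 (PSME4) to 363 (PSME1), the core assembly chaperones from 8.47 (PSMG1) to 48.8 (PSMG3), and the cap assembly chaperones from 5.97 (PSMD9) to 23.7 (PSMD10). PSMF1, which encodes the proteasome inhibitor PI31, was 6th at 209 CPM per kilobase of transcript and 1st at 1020 CPM per kilobase of coding sequence, so its place depends on the length used.

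**Figure D3:**
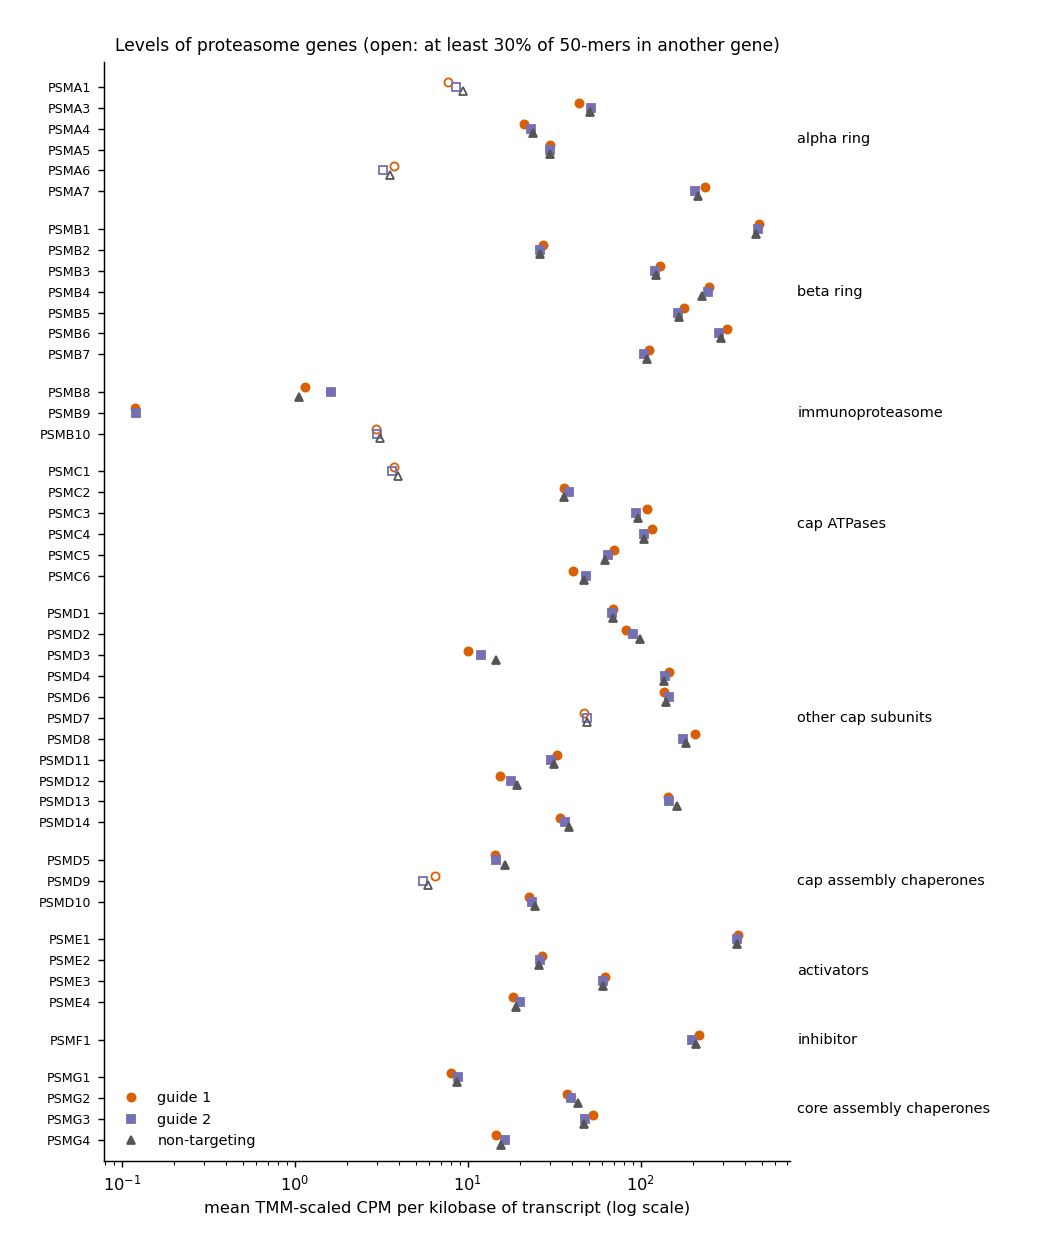
Mean level of each proteasome gene in TMM-scaled CPM per kilobase of transcript (x axis, log scale) with guide 1, guide 2 and the non-targeting guide. Open symbols mark members with at least 30% of their 50-base words in another annotated gene, and values of 0 (PSMA2, PSMA8, PSMB11, and PSMB9 in the non-targeting group) have no point. PSMB1 lies farthest right at 473 CPM per kilobase over all libraries, and the 3 groups of a gene lie close together.

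Several ring and cap genes were far below the rest of their complex. PSMA2 was listed at 0 in each of the 7 libraries, where 3 counts would be 0.265 to 0.323 CPM, although its alpha subunit is part of every core. A second row named PSMA2.1, which the rule does not take, held 17 and 24 counts with guide 1, 22 and 18 with guide 2, and 35, 17 and 18 in the non-targeting libraries. Which annotated gene each of those rows stands for is not given in the sources used here. PSMA6 had a mean of 3.51 CPM per kilobase, PSMC1 of 3.81 and PSMA1 of 8.66.

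These members share sequence with other annotated genes. In the longest principal transcript of PSMC1, 97.5% of 50-base words occur in another gene, and 82.1% of its exon bases are overlapped by NRDE2 on the opposite strand. The share was 85.6% for PSMA6, 51% for PSMA2, 48.4% for PSMA1, 46.9% for PSMD7, 38.9% for PSMB10 and 35.8% for PSMD9. The 5 ring and cap genes with at least 30% shared words had a median of 3.81 CPM per kilobase (0 to 48.2), against 95.5 (12.5 to 473) for the 26 others. The 30% limit was chosen after these levels were seen, and the part of read assignment in them was not tested. Smart-seq2 libraries do not mark strand and the treatment of reads with several places is not given in the sources used here, so levels of these 7 members are uncertain.

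The inducible and tissue-restricted genes were near or at 0. PSMB8, an interferon-induced catalytic subunit, had 1.28 and 1.31 CPM with guide 1 and 1.96 and 1.70 with guide 2, against 1.24, 1.26 and 1.08 in the non-targeting libraries. PSMB9, another of them, had 0 and 2 counts with guide 1 and 1 and 1 with guide 2, against 0 in each non-targeting library. That is under the 3 counts taken as detectable, so no fold is given. PSMB10, the last of the trio, had 3.94 and 3.27 CPM with guide 1 and 3.64 and 3.68 with guide 2, against 3.18, 3.96 and 4.3 in the non-targeting libraries. The testis alpha subunit PSMA8 and the thymus beta subunit PSMB11 had 0 counts throughout. PSMB8 was thus low in all groups, on 10 to 21 counts a library. After TMM scaling it was a little higher in each guide library than in any non-targeting one. Guide 1 replicate 1 had 13 counts, fewer than the 14 in non-targeting replicates 1 and 2, so that order depends on the scaling. The log2 difference for both guides was 0.36, with a 95% interval of -0.33 to 1.05.

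The first comparison asked whether lowering TMCC2 came with a change in the proteasome genes, with both guides pooled as their mean. No member was called: 0 of 44 passed an adjusted p of 0.05 by edgeR's quasi-likelihood test, where 2 of 10212 genes, or 0.0196%, did. An unadjusted p under 0.05 was reached by 1 member, PSMD3, and by 4.19% of all genes, and DESeq2 also called 0. Fold changes were positive for 22 members and negative for 22, with a median of 0.0017, against -0.015 for all genes tested. Without non-targeting replicate 1 the split was 16 positive and 28 negative (36.4% positive, against 50.2% of all genes), with a median of -0.024. The 95% interval lay within 0.5 on the log2 scale on both sides for 39 of the 44, compared with 52.5% of all genes, and the estimate itself was under 0.25 for 42. The intervals of PSMA1, PSMB8, PSMB10, PSMD3 and PSMD12 passed 0.5 on at least 1 side. The spread behind all these intervals may be technical, so they describe these libraries and do not bound a biological change.

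By class, median log2 fold changes were 0.15 for the 2 tested immunoproteasome genes, both at a few CPM or less, 0.034 for the 7 beta ring genes, 0.069 for the 6 cap ATPases, 0.018 for the 4 activators, -0.016 for PSMF1, -0.022 for the 11 other cap subunits, -0.033 for the 4 core assembly chaperones, -0.061 for the 6 tested alpha ring genes and -0.080 for the 3 cap assembly chaperones. Of these classes, 5 changed sign without non-targeting replicate 1: the median was then 0.035 for the alpha ring, -0.046 for the beta ring, -0.0031 for the cap ATPases, -0.0026 for the activators and 0.0020 for the cap assembly chaperones. With the GC content correction the alpha ring median was 0.0092.

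The catalytic subunits of the beta ring differed little from the non-targeting group with both guides pooled. PSMB5, with the chymotrypsin-like site, had 239 and 225 CPM with guide 1 and 212 and 217 with guide 2, against 189, 223 and 237 in the non-targeting libraries. PSMB6, with the caspase-like site, had 267 and 271 CPM with guide 1 and 252 and 229 with guide 2, against 204, 274 and 273 with the non-targeting guide. PSMB7, with the trypsin-like site, had 114 and 104 CPM with guide 1 and 102 and 102 with guide 2, against 98.1, 111 and 109 with the non-targeting guide. In all 3 genes the lowest value was that of non-targeting replicate 1, and each guide overlapped the non-targeting libraries. The guides did not overlap each other in these genes, with guide 2 lower, as in 22.2% of all genes. Their log2 fold changes for both guides were 0.042, 0.023 and -0.0058, each with an SE of 0.097 to 0.11.

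Among structural ring genes, PSMB1 had 455 and 445 CPM with guide 1 and 439 and 441 with guide 2, against 398, 454 and 442 in the non-targeting libraries. PSMB2 had 76.6 and 70.9 CPM with guide 1 and 72.1 and 68.7 with guide 2, against 67.8, 70.0 and 73.5 with the non-targeting guide. PSMA7, the highest alpha subunit, had 235 and 233 CPM with guide 1 and 217 and 195 with guide 2, against 193, 232 and 215 with the non-targeting guide. The highest value of each gene was that of guide 1 replicate 1. Each guide overlapped the non-targeting libraries except for PSMA7 with guide 1, which lay above them, as 11.3% of all genes did. In PSMB1 and PSMA7 the guides did not overlap each other, with guide 2 lower, as in 22.2% of all genes.

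PSMD3 and PSMD2, which encode scaffold subunits of the cap, were the members with the smallest p-values. PSMD3 had 23.4 and 19.8 CPM with guide 1 and 27.2 and 24.5 CPM with guide 2, against 23.9, 38.6 and 31.4 CPM in the non-targeting libraries. Every guide library lay below non-targeting replicates 2 and 3, and non-targeting replicate 1 lay among the guide libraries. Its mean was 23.7 ± 3.07 CPM (SD, n = 4) with both guides and 31.3 ± 7.34 CPM (SD, n = 3) with the non-targeting guide, a log2 fold change of -0.41 (SE 0.16, 95% interval -0.74 to -0.074, unadjusted p = 0.0197 and adjusted p = 0.998 by the edgeR test).

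PSMD2, whose subunit docks ubiquitin shuttles on the cap, had 291 and 274 CPM with guide 1 and 306 and 316 CPM with guide 2, against 285, 385 and 355 CPM in the non-targeting libraries. The pattern was that of PSMD3: 4 guide libraries below 2 non-targeting libraries, with non-targeting replicate 1 among them. Its mean was 297 ± 18.4 CPM (SD, n = 4) with both guides and 341 ± 51.5 CPM (SD, n = 3) with the non-targeting guide, a log2 fold change of -0.20 (SE 0.11, 95% interval -0.43 to 0.023, adjusted p = 0.998).

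**Figure D4:**
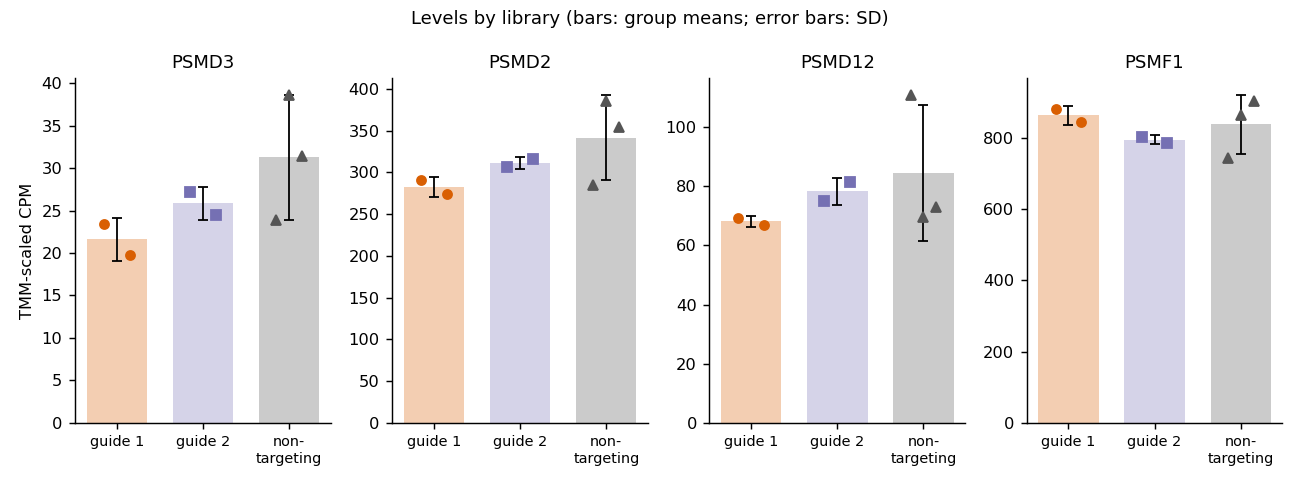
Levels of PSMD3, PSMD2, PSMD12 and PSMF1 in TMM-scaled CPM (y axes, from 0) for each library of guide 1, guide 2 and the non-targeting guide; bars are group means and error bars SDs (n = 2, 2 and 3). In PSMD3 and PSMD2 non-targeting replicate 1 (23.9 and 285 CPM) lies with the guide libraries, in PSMD12 it is the highest (111 CPM), and in PSMF1 the lowest (745 CPM).

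Whether these genes were called depended on non-targeting replicate 1. Without it, PSMD2 and PSMD3 were called for both guides, and 53 of 10107 genes were called in all (0.524%). PSMD2 fell by 0.32 on the log2 scale (SE 0.061, adjusted p = 0.00368) and PSMD3 by 0.57 (SE 0.11, adjusted p = 0.00388, edgeR). With the GC content correction in addition, an alternative added after the data were seen, PSMD2 stood at -0.31 (adjusted p = 0.00141) and PSMD3 at -0.54 (adjusted p = 0.00369). The share of all genes called under that setting is not given here. With the correction and all 7 libraries, adjusted p was 0.383 for PSMD2 and 0.233 for PSMD3. Leaving out non-targeting replicate 2, the highest library for both genes, gave -0.11 (adjusted p = 0.833) and -0.22 (adjusted p = 0.729). Over all alternatives the adjusted p of PSMD2 ran from 0.00141 to 1.0 and that of PSMD3 from 0.00369 to 1.0.

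PSMD13 and PSMG2 came next by p-value. PSMD13, a cap lid subunit, had 293 and 279 CPM with guide 1 and 278 and 305 with guide 2, against 301, 305 and 356 in the non-targeting libraries, a log2 fold change of -0.15 (SE 0.095) from overlapping groups. Without non-targeting replicate 3, its highest library, that value was -0.068. PSMG2, which pairs with PSMG1 to start alpha ring assembly, had 64.4 and 62.4 CPM with guide 1 and 65.5 and 67.4 with guide 2, against 87.3, 65.1 and 67.0 with the non-targeting guide. Only non-targeting replicate 1 stood out there, and the log2 fold change was -0.17 (SE 0.12), against a range of -0.25 to -0.025 with any 1 library left out. PSMD12, another lid subunit, had 69.4 and 66.9 CPM with guide 1 and 75.1 and 81.6 with guide 2, against 111, 69.6 and 72.9 with the non-targeting guide, and again 1 control library set the group mean.

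Other cap genes of interest differed little with both guides pooled. PSMD11, a lid subunit that is known to promote the joining of cap and core, had 108 and 111 CPM with guide 1 and 102 and 98.2 with guide 2, against 102, 105 and 105 in the non-targeting libraries. Its log2 fold change for both guides was 0.0057 (SE 0.092). Among the ATPases, PSMC4 had 186 and 183 CPM with guide 1 and 181 and 150 with guide 2, against 140, 184 and 172 with the non-targeting guide. PSMC1, at the other end of the class, had 17.4 and 15.9 CPM with guide 1 and 16.9 and 15.7 with guide 2, against 15.7, 16.6 and 20.4 with the non-targeting guide. The pooled guide libraries overlapped the non-targeting libraries in each, while for PSMD11 guide 1 alone lay above them, as in 11.3% of all genes.

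Activators and the inhibitor also differed little with both guides pooled. PSME1 and PSME2 encode partners in one interferon-responsive activator ring. PSME1 had 372 and 366 CPM with guide 1 and 374 and 356 with guide 2, against 318, 386 and 384 in the non-targeting libraries. PSME2 had 39.2 and 36.0 CPM with guide 1 and 36.0 and 37.2 with guide 2, against 32.5, 37.2 and 38.7 with the non-targeting guide. In both, non-targeting replicate 1 was lowest and the remaining libraries lay close together. PSME3, the nuclear activator, had 62.5 and 60.8 CPM with guide 1 and 58.9 and 61.9 with guide 2, against 65.1, 57.8 and 57.9 with the non-targeting guide. PSME4, the large single-chain activator, had 127 and 131 CPM with guide 1 and 130 and 155 with guide 2, against 139, 126 and 141 with the non-targeting guide. The inhibitor gene PSMF1 had 882 and 845 CPM with guide 1 and 804 and 786 with guide 2, against 745, 866 and 904 with the non-targeting guide, so its guide libraries sat inside the non-targeting range, with a log2 fold change for both guides of -0.016 (95% interval -0.21 to 0.18).

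The assembly chaperones gave the same picture. PSMG1 had 17.9 and 16.5 CPM with guide 1 and 18.7 and 18.9 with guide 2, against 19.2, 20.4 and 16.0 in the non-targeting libraries. PSMG3, whose protein pairs with that of PSMG4, had 56.8 and 49.7 CPM with guide 1 and 50.4 and 45.3 with guide 2, against 47.0, 50.5 and 44.6 with the non-targeting guide. PSMG4 had 11.6 and 12.8 CPM with guide 1 and 14.9 and 12.5 with guide 2, against 12.8, 13.0 and 13.5 with the non-targeting guide. Groups overlapped in all 3 when the libraries of both guides were pooled. Among chaperones of the cap base, PSMD10 (gankyrin) had 34.8 and 34.8 CPM with guide 1 and 38.1 and 35.2 with guide 2, against 43.7, 34.3 and 35.2 with the non-targeting guide. PSMD9 had 18.2 and 17.9 CPM with guide 1 and 15.3 and 15.6 with guide 2, against 15.7, 15.7 and 17.9 with the non-targeting guide, so the guides lay on either side of the non-targeting range. Of all genes, 11.3% lay above their non-targeting range with guide 1 and 6.86% below it with guide 2.

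Each guide was then set against the non-targeting guide alone. These comparisons share the 3 non-targeting libraries, so their values are given side by side and not as a replication. With guide 1, 0 of 44 members were called, where 0.0294% of genes were, and 2 members (PSMD3 and PSMD2) had an unadjusted p under 0.05, against 4.78% of genes. Signs were positive for 24 and negative for 20 members, with a median of 0.016 (-0.0083 for all genes). With guide 2, 0 members were called, where 0.00979% of genes were, and 0 had an unadjusted p under 0.05, against 2.75% of genes. Signs were positive for 20 and negative for 24, with a median of -0.018 (-0.023 for all genes). DESeq2 called 0 members for either guide, and intervals lay within 0.5 on both sides for 33 members with guide 1 and for 38 with guide 2.

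PSMD3 stood at -0.54 with guide 1 (SE 0.19, 95% interval -0.94 to -0.13, adjusted p = 0.877) and at -0.28 with guide 2 (SE 0.19, 95% interval -0.67 to 0.12, adjusted p = 0.999, edgeR). PSMD2 stood at -0.27 with guide 1 (SE 0.13) and -0.13 with guide 2 (SE 0.13). PSMD12 followed for guide 1, at -0.31 (SE 0.17), and PSMC6, a cap ATPase, at -0.21 (SE 0.13). Without non-targeting replicate 1 these were -0.064 and -0.10, and with the GC content correction -0.15 and -0.063. For guide 2 the next were PSMD13 at -0.14 (SE 0.11; -0.053 without non-targeting replicate 3) and the ATPase gene PSMC2 at 0.12 (SE 0.11), which had 103 and 102 CPM with guide 1 and 106 and 114 with guide 2, against 98.9, 102 and 104 in the non-targeting libraries. None of these passed adjustment with all 7 libraries. Without non-targeting replicate 1, PSMD2 fell by 0.39 (adjusted p = 0.00256) and PSMD3 by 0.70 (adjusted p = 0.00312) with guide 1, where 0.584% of genes were called. With guide 2 they stood at -0.25 (adjusted p = 0.0635) and -0.44 (adjusted p = 0.0668), where 1.27% of genes were called. Without non-targeting replicate 2, PSMD2 and PSMD3 stood at -0.18 (adjusted p = 0.662) and -0.35 (adjusted p = 0.543) with guide 1, and at -0.038 and -0.094 with guide 2.

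**Figure D5:**
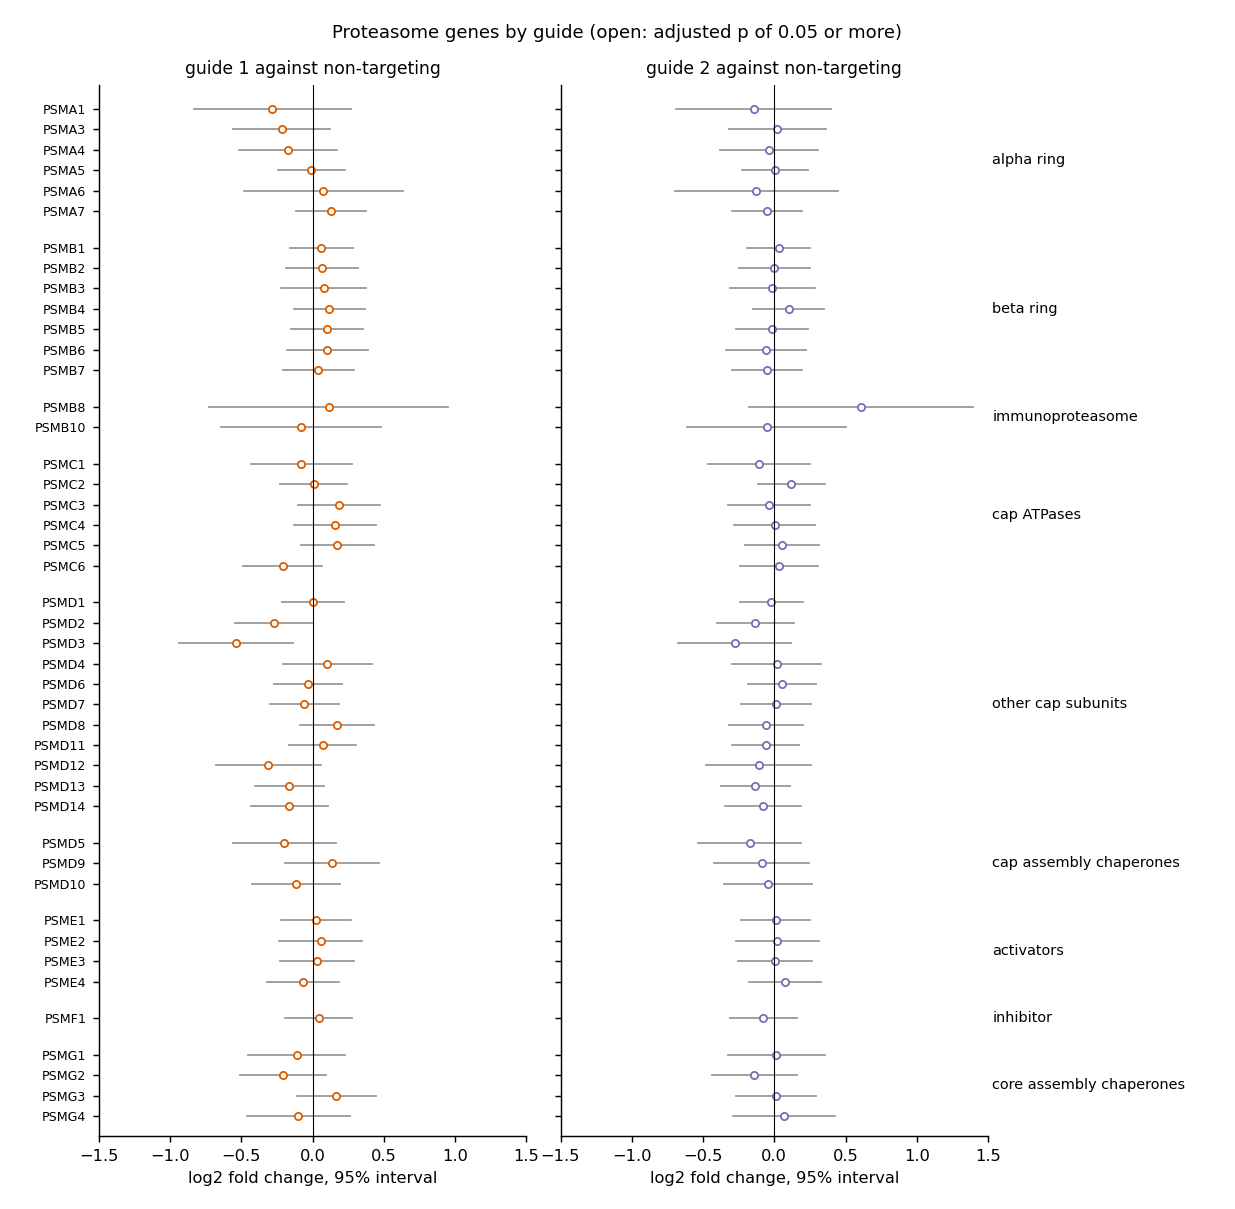
Log2 fold change (x axis) of each tested proteasome gene with guide 1 (left) and guide 2 (right) against the non-targeting guide; bars are 95% intervals from the edgeR fit and open points mark an adjusted p of 0.05 or more. All points are open; PSMD3 lies lowest in both panels (-0.54 and -0.28), and PSMB8 has the widest interval.

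Counts of members whose groups did not overlap were read against the same count over all genes. For both guides, 1 member, PSMB8, was higher in every guide library after TMM scaling (3.03% of genes were) and 0 were lower (2.37%). Its raw counts with guide 1 overlapped those of the non-targeting group. For guide 1, 6 of 44 were higher (11.3% of genes) and 8 lower (10.3%). The higher ones were PSMA7, PSMB8, PSMC5, PSMD8, PSMD9 and PSMD11, and the lower ones PSMC6, PSMD3, PSMD7, PSMD12, PSMD13, PSMD14, PSMG2 and PSMG4. For guide 2, PSMB8 and PSMC2 were higher (8.16%) and PSMD9 lower (6.86%).

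The guides were finally compared with each other. No member was called (0% of genes were), 0 had an unadjusted p under 0.05 against 2.86% of genes, and DESeq2 called 0 as well. The median log2 difference of guide 2 minus guide 1 was -0.016, against 0.0015 for all genes, with 21 members positive and 23 negative. Scaled by total counts, 29 were positive and 15 negative and the median was 0.051, against 0.069 for all genes, so that scaling moved the members and all genes alike. PSMC6 came first, with 88.3 and 93.4 CPM with guide 2, against 75.7 and 77.8 with guide 1, a log2 difference of 0.24 (SE 0.14); the non-targeting libraries had 102, 84.5 and 79.8 CPM. PSMD8 had 280 and 264 CPM with guide 2, against 319 and 319 with guide 1, a difference of -0.23 (SE 0.13), and 239, 304 and 308 CPM in the non-targeting libraries. In both genes the libraries of the guides did not overlap each other, and both lay within or near the non-targeting range. Of all genes, 21.9% were higher with guide 2 without overlap, as PSMC6 was, and 22.2% lower, as PSMD8 was. PSMC3, another cap ATPase, had 160 and 133 CPM with guide 2, against 179 and 163 with guide 1, a difference of -0.23 (SE 0.15), and 128, 164 and 159 CPM in the non-targeting libraries. Without guide 2 replicate 2 that difference was -0.097. PSMA7 differed by -0.18 (SE 0.13), and by -0.10 without guide 2 replicate 2. With the GC content correction PSMC6, PSMD8 and PSMC3 differed by 0.12, -0.14 and -0.15. For PSMD3 the difference between guides was 0.26 (95% interval -0.18 to 0.70; 0.14 without guide 1 replicate 2) and for PSMD2 0.14 (95% interval -0.16 to 0.44).

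The beta ring genes lay on one side in that comparison. All 7 were lower with guide 2 than with guide 1, with a median of -0.093, and all 7 were again with the GC content correction (median -0.088). Scaled by total counts 4 of 7 were lower, with a median of -0.026, where the median of all genes was 0.069. Their summed level was 1410 and 1380 CPM with guide 2, against 1490 and 1460 with guide 1, and the non-targeting libraries stood at 1220, 1480 and 1470. Groups of 2 libraries did not overlap for 12 members higher (21.9% of genes) and 15 lower (22.2%) with guide 2. No beta ring gene was called.

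Genes that work with the proteasome were taken from a list of 30, all of them tested. None was called in any of the 4 comparisons. An unadjusted p under 0.05 was reached by 3 for both guides, all lower (4.19% of all genes reached it in either direction), by 4 for guide 1, all lower (4.78%), by 0 for guide 2 (2.75%), and by 3 for guide 2 against guide 1, all higher (2.86%). Median log2 fold changes were -0.035 for both guides (-0.015 for all genes), -0.043 for guide 1 (-0.0083), -0.0048 for guide 2 (-0.023) and 0.11 for guide 2 against guide 1 (0.0015).

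The 4 partners of smallest p for both guides were PITHD1, DDI2, ZFAND5 and RAD23B. PITHD1, named for a domain it shares with the proteasome-bound thioredoxin TXNL1, had 74.4 and 69.2 CPM with guide 1 and 78.0 and 101 with guide 2, against 105, 104 and 92.4 in the non-targeting libraries, a log2 fold change of -0.32 (SE 0.11; edgeR adjusted p = 0.998). DDI2, the protease that activates NFE2L1, had 149 and 158 CPM with guide 1 and 161 and 174 with guide 2, against 215, 181 and 178 with the non-targeting guide, a log2 fold change of -0.25 (SE 0.099; -0.16 without non-targeting replicate 1). Its groups did not overlap, with the guides lower, as in 2.37% of all genes. DDI2 was named for its small p, so that order is no separate evidence. The groups of PITHD1 overlapped through guide 2 replicate 2. NFE2L1 itself differed by 0.18 (SE 0.14).

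ZFAND5, a zinc finger protein that stimulates the proteasome, had 57.0 and 66.9 CPM with guide 1 and 82.7 and 107 with guide 2, against 115, 92.9 and 81.2 in the non-targeting libraries. Guide 1 lay below all other libraries and guide 2 within the non-targeting range. Of all genes, 10.3% lay below the non-targeting libraries with guide 1. Its log2 fold change was -0.64 with guide 1 (SE 0.16, unadjusted p = 0.00147, adjusted p = 0.877) and -0.027 with guide 2 (SE 0.16), and the difference between guides was 0.61 (SE 0.18, adjusted p = 0.983). It was called for guide 1 with the GC content correction, without a filter on low counts, and without non-targeting replicate 1. In that last setting 0.584% of all genes were called for guide 1, and the shares under the other settings are not given here. RAD23B, a shuttle that carries ubiquitin-tagged proteins to the cap, had 3.64 and 3.55 CPM with guide 1 and 3.92 and 5.0 with guide 2, against 9.88, 3.87 and 4.3 with the non-targeting guide, so non-targeting replicate 1 set its log2 fold change of -0.60 (SE 0.30), which was -0.025 without that library. FBXO7, a ubiquitin ligase adaptor that binds the PSMF1 protein, differed by -0.013 (SE 0.084) and POMP, which matures the core, by -0.085 (SE 0.10).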

How the data were processed

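The authors deposited raw counts per gene symbol for 7 libraries, with no scaling, per the file header. Libraries were made with Smart-seq2 and Nextera indexing, per the labels' protocols. STAR and GRCh37 (hg19) are named per the submitters' processing notes, with no version. The counting program, gene annotation and strand setting were not given in the sources used here. Counts were fitted with edgeR 4.0.16 in R 4.3.3: filterByExpr with a minimum count of 10 (10212 genes kept), TMM scaling, and a quasi-likelihood fit of group over all 7 libraries (4 residual degrees of freedom, biological coefficient of variation 12.5%). Tests were two-sided F-tests with Benjamini-Hochberg adjustment over all tested genes. Standard errors and 95% intervals came from that fit and cover the spread between libraries. DESeq2 1.42.0, other scalings, filters, a replicate block, a correction for GC content (loess, span 0.5; GC known for 92.3% of tested genes) and leaving out each library were alternatives, and the scripts were tested on simulated data. Lengths, GC content and shared 50-base words came from GENCODE v29 (GRCh38), promoters from RefSeq. Members and lists were chosen with earlier results of these data known. Values per library were given for the 4 members of smallest p in each comparison with at least 5 CPM, for the extremes per kilobase of each class, and for the catalytic, inducible, activator, inhibitor and core chaperone genes. The marker and partner lists used fixed symbols, and 1 marker is not reported here.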

Additional observations from a re-analysis of the deposited data

How the results depend on the processing

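The count of proteasome genes called left 0 in a single way: without non-targeting replicate 1 it was 2 (PSMD2 and PSMD3) for both guides and 2 for guide 1, with or without the GC content correction, so it ran from 0 to 2 when any 1 library was left out, and it was 0 under each setting for guide 2 and between guides. Nothing else tried (2 other scalings, 2 other filters, DESeq2, the GC content correction with all libraries, the groups compared alone) called a member. With any 1 library left out, the median log2 fold change of members ran from -0.024 to 0.025 for both guides, -0.013 to 0.044 for guide 1, -0.034 to -0.0022 for guide 2 and -0.031 to 0.0025 for guide 2 against guide 1. Scaled by total counts it was 0.051 between guides, -0.0089 for guide 1 and 0.024 for guide 2, and the median deviation was 0.010 in non-targeting replicate 1 and -0.054 in non-targeting replicate 3. With the GC content correction and without non-targeting replicate 1, the guide 2 median was -0.064 and PSMC2 with guide 2 reversed to -0.0076; the cause was not tested. Of the partners, those 2 changes together called 1 (PITHD1, lower) for both guides, 2 (PITHD1 and ZFAND5, lower) for guide 1 and 1 (ZFAND5, higher) for guide 2 against guide 1. Without non-targeting replicate 1 alone the counts were 2 for guide 1 (the same genes), 1 for guide 2 (SEL1L, higher) and 1 between guides (ZFAND5), in ranges of 0 to 2, 0 to 1 and 0 to 1 when any 1 library was left out. The shares of all genes called without that library were 0.584% for guide 1, 1.27% for guide 2 and 0.317% between guides. ZFAND5 was the 1 call for guide 1 without a filter or with the correction alone, and the 1 call between guides when only those groups were fitted. For these settings, and for the correction without non-targeting replicate 1, the share of all genes called is not given here. Those calls, and the calls of PSMD2 and PSMD3 with the correction, are therefore not read as a result about the partners or the family. Fitting only the groups compared is the same fit as the main one for both guides. The labels do not say whether replicate numbers pair the libraries. For 6 same-numbered pairs, deviations from the group means had correlations of -0.19 to 0.028. In a group of 2 libraries such deviations mirror each other, so the 6 values are not independent and cannot settle pairing. With the replicate number as a block the medians were 0.025 for both guides, 0.032 for guide 1, -0.010 for guide 2 and -0.015 for guide 2 against guide 1, with 0 members called. With 2 or 3 libraries a group, even a difference of about 0.5 on the log2 scale could stay uncalled. PSMD3 with guide 1 was at -0.54 (SE 0.19) with an edgeR adjusted p of 0.877. The lack of a call therefore does not by itself bound a change, and PSMA2, PSMA8, PSMB9 and PSMB11 were too low to test.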

Other observations

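Rows beside the family were also read. PSMD5-AS1, antisense to the cap chaperone gene PSMD5, had 222 and 255 counts with guide 1 and 287 and 242 with guide 2, against 238, 234 and 178 in the non-targeting libraries. PSMD6-AS2 had 12 to 22 counts in a library and PSMG3-AS1 17 to 36. In GENCODE v29, 0% of exon bases in the principal transcripts of PSMD5, PSMD6 and PSMG3 were overlapped by another gene on either strand. Whether reads were shared between these rows and their sense partners was not tested. The row PSMA1.1 had 0 counts in each library, and PSMC3IP, whose product is not a proteasome subunit, had 5 to 18.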
